A study of Macaca mulatta with 12 samples.

Results

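Histone lysine demethylases remove methyl groups from lysines of the histone tails, and 10 genes of the family were followed here across all 12 libraries: KDM1A, KDM2A, KDM2B, KDM3A, KDM4A, KDM4B, KDM5A, KDM5B, KDM6A and KDM6B. They were taken as a fixed list of names, not by their values, and all 10 were found among the 32386 gene rows of the deposited count table. KDM5A was found under its symbol and the other 9 through Ensembl identifiers paired with names in a macaque name table. All 10 passed the filter on low counts.

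The libraries came from blood macrophages of rhesus macaques that carry the authors' model of TET2-mutant clonal hematopoiesis, the expansion of a mutant blood stem cell clone. In this model the animal's own mobilized CD34+ cells were edited with CRISPR/Cas9 and transplanted back, and this holds for all 4 groups, so none of them is an unedited or untransplanted control. Mononuclear cells were sorted as CD14+ CD16- CD163+ and plated at 250000 cells per well for 8 h. Late ACT and Late CTL cells were taken at 19 months after transplant, and Early ACT and Early CTL cells at 4.5 months. ACT cells were cultured with 100 ng/ml lipopolysaccharide (LPS), a bacterial cell wall product, and 20 ng/ml interferon-gamma, per the treatment protocol, while CTL cells had neither. The per-sample treatment label names LPS alone. Each group had 3 libraries, and no label says whether these were separate animals or separate wells, so p-values measure the spread between libraries, which may be technical. The share of TET2-mutant cells in each library is not given in the labels, and no library date is given, so time after transplant and any difference in handling between the times cannot be told apart.

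Methyl marks on histones help set whether a gene is read: methylation of lysine 4 of histone H3 (H3K4) lies at active promoters and enhancers, H3K36 methylation lies mostly in transcribed gene bodies, and H3K9 and H3K27 methylation go with silent chromatin. KDM1A removes methyl groups with a flavin cofactor. The other members carry a Jumonji C domain and use iron, oxygen and 2-oxoglutarate, the same cofactors that the DNA hydroxylase TET2 uses. In mouse macrophages KDM6B is known as a gene that LPS induces.

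Library totals ran from 3910680 to 12972505 counts, and levels are given as CPM, each library's counts brought to a common total and scaled by its trimmed mean of M-values factor (scaled CPM). Each member's level is compared between groups only, since without transcript lengths the levels of different genes cannot be ranked. Thinned to the same depth, 17470 to 18717 genes were detected in late libraries, against 13637 to 13955 in early libraries. The 10 macrophage and monocyte markers, all found, summed to 5601 to 5839 scaled CPM in Late ACT and 5977 to 6580 in Late CTL, against 9252 to 9690 in Early ACT and 9901 to 10376 in Early CTL libraries. The 6 neutrophil markers summed to 321 to 396 and 356 to 415 scaled CPM in Late ACT and Late CTL, against 677 to 755 and 646 to 675 in Early ACT and Early CTL. The 5 dendritic cell markers summed to 182 to 189 and 172 to 198 scaled CPM in Late ACT and Late CTL, against 242 to 343 and 236 to 275 in Early ACT and Early CTL, with CLEC9A at 0 in the early libraries. Because the samples are bulk RNA of sorted cells, fewer cells of a type and less RNA per cell cannot be told apart. These 3 sums move with time, with no overlap between late and early libraries, and their part in the results below was not tested. T cell markers stayed under 1 scaled CPM in sum and B cell markers under 7, in all 12 libraries. TET2 averaged 427 and 412 scaled CPM in Late ACT and Late CTL, against 322 and 249 in Early ACT and Early CTL. A mutated gene can still be transcribed, so this does not check the edit.

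Over all genes 2 libraries stood apart from their groups. Early ACT 1 differed from Early ACT 2 and 3 by a chi-square of 27.5 and 28.4 per degree of freedom over genes, against 2.82 between the other pair. Late CTL 3 differed from Late CTL 1 and 2 by 10.2 and 11.2, against 3.30 between that pair. Results that rest on either library are given with and without it.

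Most of the demethylases that changed with time were lower at 19 months. In unstimulated cells 7 of the 10 members changed between Late CTL and Early CTL, 6 of them lower and 1, KDM6B, higher, where 40.7% of all 11826 genes tested were called in either direction, 19.8% lower and 20.9% higher (edgeR quasi-likelihood test, Benjamini-Hochberg adjusted p under 0.05). Their median log2 fold change was -0.50, against 0.02 over all genes. In stimulated cells 4 members were lower in Late ACT than in Early ACT and none higher, where 38.8% of all genes were called in either direction and 19.7% lower. Here the median was -0.28, against 0.05 over all genes. The share of members called in stimulated cells is near the background, and so nothing is read from that count. KDM2B, KDM4A and KDM4B were lower in both comparisons.

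Stimulation changed 5 of the members at 4.5 months, and at 19 months no change was detectable. Between Early ACT and Early CTL 5 of the 10 members changed, KDM1A and KDM6B higher and KDM2A, KDM3A and KDM5B lower, where 7.23% of all genes were called in either direction, 4.57% higher and 2.66% lower. Between Late ACT and Late CTL none of the 10 members was called, and neither was any of the 11826 genes (percent called 0). In that comparison 527 genes and 0 members had an unadjusted p under 0.05, and DESeq2 called 15 genes and limma-voom 0, none of them a member in either. The difference between the late and the early response was called for none of the members, where 1.41% of all genes were called, although 4 members had an unadjusted p under 0.05. DESeq2 and limma-voom also called none of the members there. A response called at 4.5 months and not at 19 months is therefore not shown to differ between the times for any member by these 3 tests. With no filter on low counts the difference was called for 1 member, KDM6B.

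The libraries of the groups did not overlap for 8 members between Late CTL and Early CTL, where this held for 52.8% of all genes, and for 6 members between Late ACT and Early ACT, where it held for 50.4%. For stimulation it held for 7 members at 4.5 months, against 25.7% of all genes, and for 1 member, KDM6A, at 19 months, against 11.0%.

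**Figure D1:**
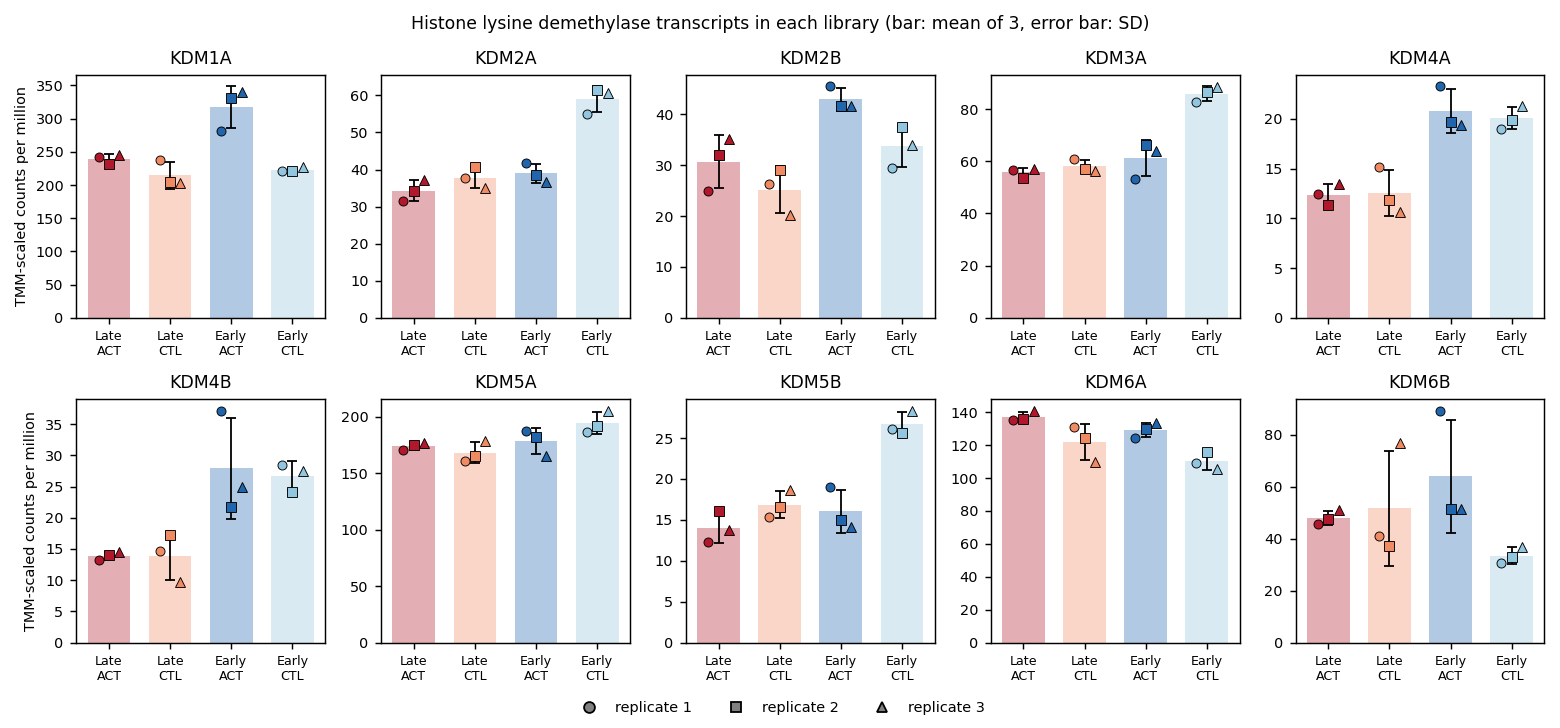
Level of each of the 10 demethylase transcripts in scaled CPM (vertical axes, from 0) in Late ACT, Late CTL, Early ACT and Early CTL libraries; bars are means of 3, error bars SD, and symbols mark replicates 1, 2 and 3. KDM2A, KDM3A and KDM5B stand highest in Early CTL, KDM4A and KDM4B stand lower in both late groups, and the high KDM6B points are Late CTL 3 and Early ACT 1.

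KDM1A, KDM5A and KDM5B act on H3K4. KDM1A, which takes off mono- and dimethyl groups within the CoREST repressor complex, had 242, 231 and 246 scaled CPM in Late ACT, 238, 204 and 202 in Late CTL, 282, 332 and 339 in Early ACT and 220.5, 221 and 227 in Early CTL libraries (replicates 1 to 3 in this order throughout). The 3 Early ACT libraries were above all others, and the remaining groups lay close together. Early ACT averaged 318 ± 31.3 scaled CPM and Early CTL 223 ± 3.45 (SD, n = 3 each), a rise on stimulation of 0.51 ± 0.11 on the log2 scale (SE; adjusted p = 0.00401), or 1.43-fold. This call holds without Early ACT 1, at 0.59 (adjusted p = 2.03e-07), and is lost when libraries are scaled by their totals alone, at 0.24 (adjusted p = 0.133), where the median over all genes is itself -0.28 (adjusted p from 4.6e-13 to 0.133 over 21 alternatives).

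At 19 months KDM1A was lower than at 4.5 months in stimulated cells and not in unstimulated ones. Late ACT averaged 239.6 ± 7.66 scaled CPM, below all Early ACT libraries, with a log2 fold change of -0.41 ± 0.11 (adjusted p = 0.00558), a call also lost with totals alone, at -0.26 (adjusted p = 0.0705), among alternatives from 1.89e-10 to 0.0705. Late CTL averaged 215 ± 20.1 scaled CPM and overlapped Early CTL, with -0.05 ± 0.11 (adjusted p = 0.732). The late response to stimulation was 0.16 ± 0.11 (adjusted p = 0.998), and the late minus the early response was -0.35 ± 0.16 on the log2 scale (adjusted p = 0.402). This difference passed the threshold without Early ACT 1, at -0.43 (adjusted p = 0.0137), and without both libraries that stand apart, at -0.47 (adjusted p = 0.000247), with adjusted p from 0.000247 to 0.759 over all 20 alternatives.

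KDM5A and KDM5B remove di- and trimethyl groups from H3K4. KDM5A had 171, 175 and 177 scaled CPM in Late ACT, 161, 165 and 179 in Late CTL, 187, 182 and 166 in Early ACT and 187, 192 and 205 in Early CTL libraries. Its 4 groups overlapped their neighbours in the order of means, from Early CTL at 195 ± 9.57 down to Late CTL at 168 ± 9.40 scaled CPM, although the Late CTL libraries all lay below the Early CTL ones. Its log2 fold change between those groups was -0.21 ± 0.11 (adjusted p = 0.128), with a 95% interval of -0.44 to 0.01. Without Early ACT 1 it was -0.23 (adjusted p = 0.0145) and without both libraries that stand apart -0.27 (adjusted p = 0.00207), past the threshold in both (adjusted p from 0.00207 to 0.571 over 21 alternatives). The other KDM5A comparisons gave -0.03 ± 0.11 (adjusted p = 0.833) for Late ACT over Early ACT, 0.05 ± 0.11 (adjusted p = 0.998) for late stimulation and -0.13 ± 0.11 (adjusted p = 0.545) for early stimulation.

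KDM5B had 12.3, 16.0 and 13.7 scaled CPM in Late ACT, 15.4, 16.6 and 18.7 in Late CTL, 19.1, 14.9 and 14.1 in Early ACT and 26.2, 25.6 and 28.3 in Early CTL libraries. Only Early CTL stood out, all 3 of its libraries lying above the other 9. KDM5B fell on early stimulation, with a log2 fold change of -0.76 ± 0.17 (adjusted p = 0.00517), which makes it 1.7-fold lower in Early ACT than in Early CTL. It was also lower in Late CTL than in Early CTL, with -0.66 ± 0.17 (adjusted p = 0.00398). Both calls held under all 21 alternatives tried. Late ACT and Early ACT overlapped, with -0.17 ± 0.18 (adjusted p = 0.486), or -0.071 without Early ACT 1, and so did Late ACT and Late CTL, with -0.27 ± 0.18 (adjusted p = 0.998).

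KDM2A and KDM2B act on H3K36 and bind unmethylated CpG-rich DNA through a zinc finger. KDM2A had 31.6, 34.3 and 37.1 scaled CPM in Late ACT, 37.8, 40.6 and 34.9 in Late CTL, 41.8, 38.5 and 36.7 in Early ACT and 55.1, 61.4 and 60.7 in Early CTL libraries. As for KDM5B, the 3 Early CTL libraries lay above the other 9, which overlapped one another. KDM2A was lower in Early ACT than in Early CTL, with a log2 fold change of -0.61 ± 0.13 (adjusted p = 0.00401) and lower in Late CTL than in Early CTL, with a log2 fold change of -0.65 ± 0.13 (adjusted p = 0.000461), and both calls held under all 21 alternatives. Between Late ACT and Early ACT the change was -0.18 ± 0.14 (adjusted p = 0.318), and between Late ACT and Late CTL -0.14 ± 0.14 (adjusted p = 0.998).

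KDM2B, which brings the Polycomb complex PRC1.1 to CpG islands, had 24.9, 31.96 and 35.2 scaled CPM in Late ACT, 26.2, 29.2 and 20.2 in Late CTL, 45.6, 41.7 and 41.6 in Early ACT and 29.5, 37.6 and 34.04 in Early CTL libraries. The Early ACT libraries were the highest and did not overlap any other group, while the 3 remaining groups overlapped their neighbours in the order of means. Late ACT was lower than Early ACT, with a log2 fold change of -0.48 ± 0.16 (adjusted p = 0.021). This call was lost without Late ACT 1, at -0.36 (adjusted p = 0.121), with upper-quartile scaling, at -0.37 (adjusted p = 0.0673), and with totals alone, at -0.32 (adjusted p = 0.111), over alternatives from 0.00277 to 0.121. Late CTL was lower than Early CTL, with a log2 fold change of -0.43 ± 0.17 (adjusted p = 0.0434), the least stable of the calls: it was lost in 9 of 21 alternatives. Among these were leaving out Late CTL 3, at -0.29 (adjusted p = 0.203), and a replicate block, at -0.43 (adjusted p = 0.0533), within adjusted p from 0.00931 to 0.203. It was also lost without Late CTL 1, at -0.47 (adjusted p = 0.0557), without Early CTL 2, at -0.35 (adjusted p = 0.162), and without Early CTL 3, at -0.43 (adjusted p = 0.0823). Early stimulation gave 0.34 ± 0.16 (adjusted p = 0.216) with libraries that did not overlap, and late stimulation 0.29 ± 0.17 (adjusted p = 0.998). Without Late CTL 3, the lowest of all libraries, the late value was 0.14 (adjusted p = 0.9999) (range 0.706 to 1.00).

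KDM3A, KDM4A and KDM4B act on H3K9, and the KDM4 enzymes on H3K36 as well. KDM3A, known as a target of the hypoxia-inducible factors, had 56.5, 53.6 and 57.1 scaled CPM in Late ACT, 61.0, 57.0 and 56.3 in Late CTL, 53.2, 66.3 and 64.1 in Early ACT and 82.8, 86.5 and 88.5 in Early CTL libraries. Once more the 3 Early CTL libraries stood above the other 9, and those overlapped. KDM3A was lower in Late CTL than in Early CTL, with a log2 fold change of -0.57 ± 0.12 (adjusted p = 0.000729), a call that held under all 21 alternatives. It was lower in Early ACT than in Early CTL, with a log2 fold change of -0.48 ± 0.12 (adjusted p = 0.0139), a call lost without Early CTL 2, at -0.48 (adjusted p = 0.0674), without Early CTL 3, at -0.47 (adjusted p = 0.0728), and with only the compared groups in the fit, at -0.49 (adjusted p = 0.0646), over alternatives from 0.000196 to 0.0728. The change was -0.14 ± 0.12 (adjusted p = 0.374) between Late ACT and Early ACT, and -0.25 (adjusted p = 0.0384) without both libraries that stand apart (range 0.0384 to 0.971). Late stimulation gave -0.06 ± 0.13 (adjusted p = 0.998). With totals alone the sign of the Late ACT over Early ACT change turns, to 0.0073.

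KDM4A, which removes di- and trimethyl groups from H3K9 and H3K36, had 12.4, 11.4 and 13.4 scaled CPM in Late ACT, 15.1, 11.8 and 10.6 in Late CTL, 23.3, 19.7 and 19.4 in Early ACT and 19.0, 19.9 and 21.2 in Early CTL libraries. All 6 late libraries lay below all 6 early ones, with ACT and CTL overlapping at each time. KDM4A was lower in Late ACT than in Early ACT, with a log2 fold change of -0.73 ± 0.18 (adjusted p = 0.00237), and lower in Late CTL than in Early CTL, with -0.70 ± 0.18 (adjusted p = 0.00335). These levels rest on 60 to 249 counts per library. Stimulation gave log2 fold changes of 0.01 ± 0.19 late and 0.03 ± 0.17 early, with 95% intervals of -0.38 to 0.40 and -0.32 to 0.39 and signs that turn with the processing. In a RefSeq annotation of another build KDM4A overlaps the protein-coding gene MED8, and the library kit does not mark the strand, so reads of both genes cannot be told apart where they overlap. The same holds for KDM2A, which overlaps a protein-coding gene with no name there and several noncoding genes, and for KDM1A, KDM2B, KDM4B and KDM5B, which overlap noncoding genes.

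KDM4B, with the same substrates, had 13.2, 14.0 and 14.5 scaled CPM in Late ACT, 14.6, 17.2 and 9.71 in Late CTL, 37.1, 21.7 and 24.9995 in Early ACT and 28.5, 24.1 and 27.6 in Early CTL libraries. Its pattern matched that of KDM4A: the late libraries, 9.71 to 17.2 scaled CPM, all lay below the early ones, 21.7 to 37.1. Late ACT averaged 13.9 ± 0.660 scaled CPM and Early ACT 27.96 ± 8.12, with Early ACT 1 the highest. The log2 fold change was -0.97 ± 0.20 (adjusted p = 0.000608), or 1.96-fold lower, and -0.77 (adjusted p = 0.000632) without Early ACT 1 (range 2.57e-06 to 0.00442). In unstimulated cells it was -0.94 ± 0.21 (adjusted p = 0.000822), or 1.92-fold lower in Late CTL than in Early CTL, and -0.74 (adjusted p = 0.00902) without Late CTL 3, the lowest library (range 5.94e-06 to 0.00902). All 4 of these KDM4A and KDM4B calls held under each alternative. Stimulation gave log2 fold changes of 0.0030 late and 0.03 ± 0.20 early, with 95% intervals of -0.45 to 0.45 and -0.37 to 0.44.

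KDM6A and KDM6B remove methyl groups from H3K27. KDM6A, a subunit of the KMT2C and KMT2D complexes, had 135, 136 and 141 scaled CPM in Late ACT, 131, 125 and 109.9 in Late CTL, 125, 129.8 and 133 in Early ACT and 109, 116 and 106 in Early CTL libraries. Late ACT was the highest group at 137 ± 3.09 scaled CPM and Early CTL the lowest at 110.1 ± 5.07, and the Late ACT libraries lay above those of every other group. None of its comparisons was called: 0.09 ± 0.11 (adjusted p = 0.571) for Late ACT over Early ACT, 0.14 ± 0.11 (adjusted p = 0.329) for Late CTL over Early CTL, 0.17 ± 0.11 (adjusted p = 0.998) for late and 0.23 ± 0.11 (adjusted p = 0.231) for early stimulation. Without both libraries that stand apart early stimulation gave 0.26 (adjusted p = 0.0125) and Late CTL over Early CTL 0.20 (adjusted p = 0.0479), both past the threshold, within 0.0125 to 0.815 and 0.0479 to 0.736 over the alternatives. Late stimulation gave 0.10 (adjusted p = 0.9999) without Late CTL 3 (range 0.654 to 1.00). With totals alone early stimulation turned to -0.04 (adjusted p = 0.815), above the median of all genes in that scaling.

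**Figure D2:**
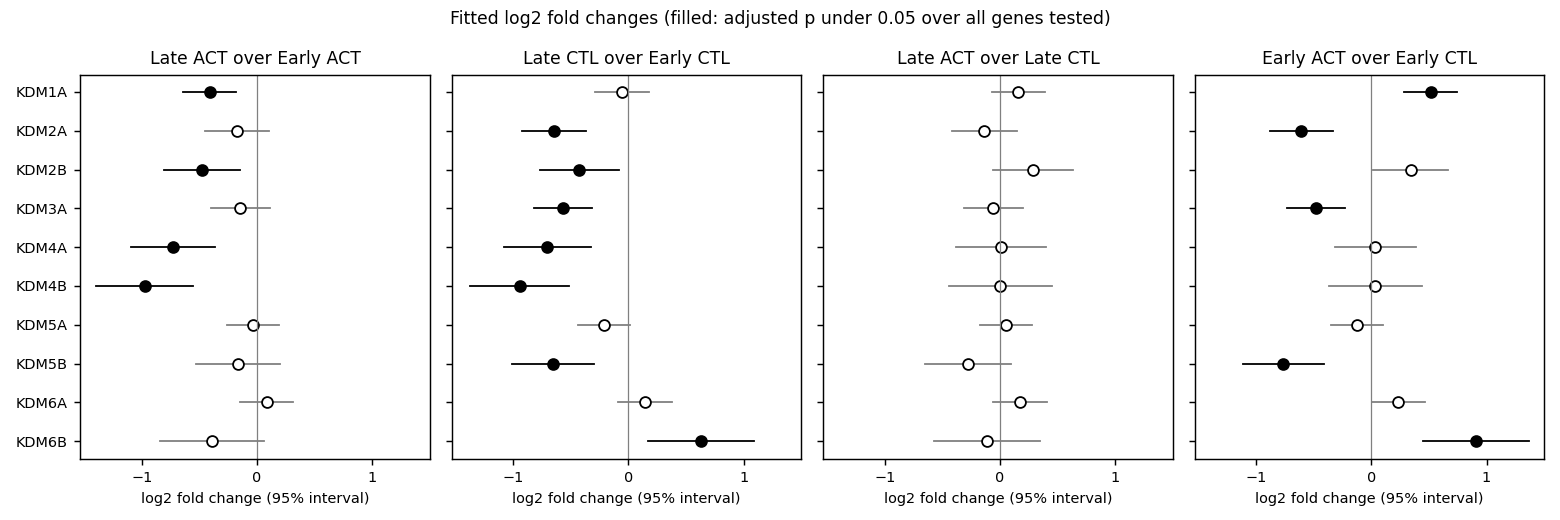
Fitted log2 fold change of each member (horizontal axes, 95% intervals not adjusted for the number of genes) for Late ACT over Early ACT, Late CTL over Early CTL, Late ACT over Late CTL and Early ACT over Early CTL; filled points have an adjusted p under 0.05 over all genes tested. KDM4A and KDM4B lie near -0.7 and -1 in both time comparisons, all points are open for late stimulation, and KDM6B lies farthest to the right for early stimulation.

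KDM6B had 45.5, 47.5 and 50.8 scaled CPM in Late ACT, 40.9, 37.1 and 76.9 in Late CTL, 89.1, 51.5 and 51.3 in Early ACT and 30.5, 32.8 and 36.9 in Early CTL libraries. In 10 of the libraries it lay between 30.5 and 51.5 scaled CPM, and the 2 highest values were in Early ACT 1 and Late CTL 3, the libraries that stand apart from their groups. Early CTL was the lowest group at 33.4 ± 3.25 scaled CPM, below Late ACT at 48.0 ± 2.68 with no overlap. Early ACT averaged 64.0 ± 21.8 and Late CTL 51.6 ± 22.0, and in each of these groups 1 library lay far above the other 2.

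KDM6B was higher in Early ACT than in Early CTL, its log2 fold change being 0.91 ± 0.22 (SE; 95% interval 0.45 to 1.36, adjusted p = 0.0116), or 1.87-fold, the member with the largest rise on stimulation. All 3 Early ACT libraries were above all 3 Early CTL libraries. Without Early ACT 1 the change was 0.62 (adjusted p = 0.155), and without both libraries that stand apart it was 0.62 (adjusted p = 1.05e-05). The call was also lost without Early CTL 1, at 0.84 (adjusted p = 0.0712), and without Early CTL 2, at 0.89 (adjusted p = 0.0545). Over 21 alternatives the value stayed above 0, from 0.62 to 1.05, with adjusted p from 1.29e-06 to 0.155.

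At 19 months the stimulation change of KDM6B was -0.11 ± 0.22 (95% interval -0.57 to 0.35, adjusted p = 0.998), and the groups overlapped. Without Late CTL 3 the sign turned, to 0.30 (adjusted p = 0.9999), with Late ACT then above both Late CTL libraries (range 0.411 to 1.00). The late minus the early response was -1.02 ± 0.31 on the log2 scale (95% interval -1.67 to -0.37, adjusted p = 0.129), not past the threshold. It was -0.60 (adjusted p = 0.396) without Late CTL 3, -0.31 (adjusted p = 0.368) without both libraries that stand apart and -1.01 (adjusted p = 0.00134) with no filter on low counts, the one alternative that called it (range 0.00134 to 0.396).

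Between the times KDM6B was higher in Late CTL than in Early CTL, with a log2 fold change of 0.63 ± 0.22 (adjusted p = 0.0275), all 3 Late CTL libraries lying above the Early CTL ones. That difference was 0.20 (adjusted p = 0.447) without Late CTL 3 and 0.19 (adjusted p = 0.232) without both libraries. It was lost in 7 of 21 alternatives, among them leaving out Early CTL 1, at 0.56 (adjusted p = 0.0981), Early CTL 2, at 0.61 (adjusted p = 0.0727), or Early ACT 1, at 0.61 (adjusted p = 0.053) (range 0.0021 to 0.447). In stimulated cells Late ACT lay below Early ACT, with a log2 fold change of -0.39 ± 0.22 (adjusted p = 0.166), with no overlap between the groups. Without Early ACT 1 that value was -0.12 (adjusted p = 0.75), and it passed the threshold only with no filter on low counts, at -0.44 (adjusted p = 0.0246) (range 0.0246 to 0.75).

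**Figure D3:**
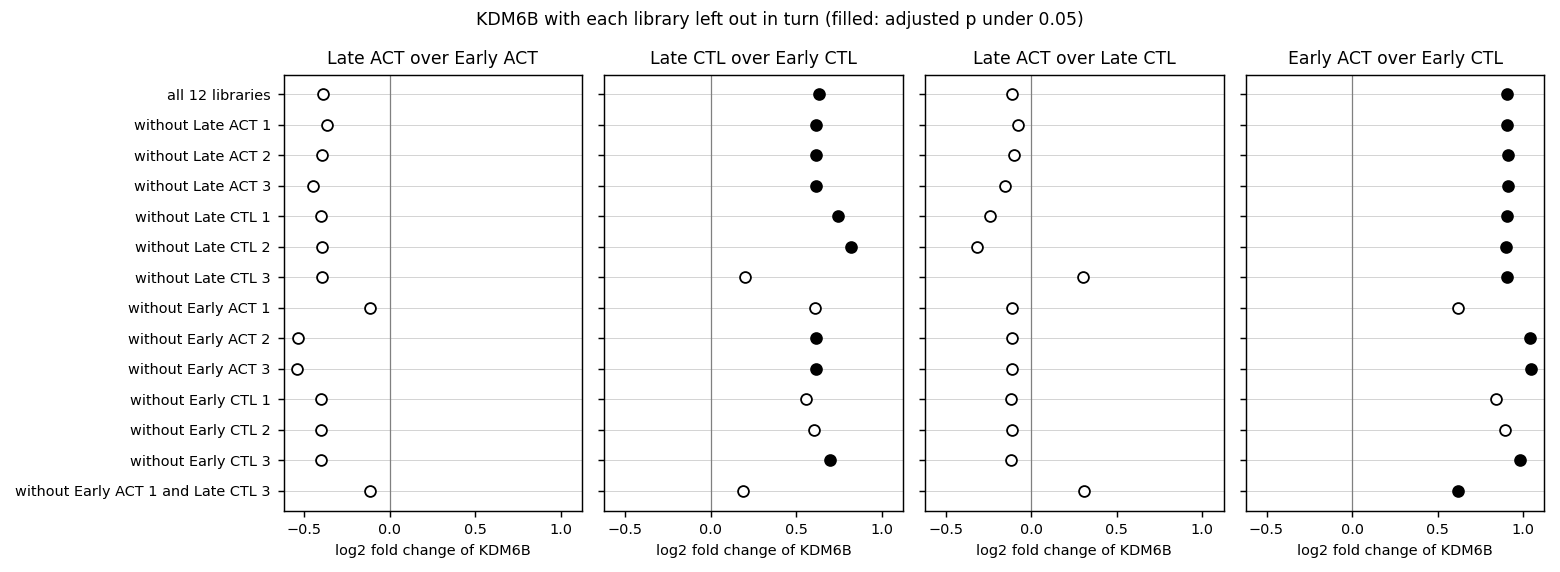
Log2 fold change of KDM6B (horizontal axes) with all 12 libraries and with each library, or the 2 that stand apart, left out (rows); filled points have an adjusted p under 0.05. Leaving out Late CTL 3 moves Late CTL over Early CTL to 0.20 and late stimulation to 0.30, and leaving out Early ACT 1 moves early stimulation to 0.62.

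Across the 12 libraries the members fell into a few like patterns, given here as Pearson correlations of log2 CPM without a test, over libraries that share their groups and depth. KDM4A and KDM4B were each other's closest member (r = 0.93), as were KDM2A and KDM5B (r = 0.92), and KDM3A was closest to KDM2A (r = 0.90). KDM5A was closest to KDM5B (r = 0.79), KDM2B to KDM4B (r = 0.77) and KDM1A to KDM2B (r = 0.71). KDM6A and KDM6B were least like the others, both closest to KDM1A, at r = 0.47 and 0.33.

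The named genes most like KDM6B over the 12 libraries were P2RX4, an ATP-gated ion channel (r = 0.92), NCOA5, a nuclear receptor coregulator (r = 0.91), RPS12, a ribosomal protein (r = 0.91), EEF1B2, a translation elongation factor (r = 0.91), and IDO1, a tryptophan-degrading enzyme known to be induced by interferon-gamma (r = 0.91). Over the 10 libraries without Early ACT 1 and Late CTL 3 these were 0.90, 0.83, 0.79, 0.70 and 0.96, so that EEF1B2 was the one that lost most and IDO1 the one that gained. IDO1 had 4670.5, 4402 and 4454 scaled CPM in Late ACT, 4172, 4053 and 4721 in Late CTL, 6506, 4916 and 4933 in Early ACT and 3548, 3641 and 3991 in Early CTL libraries. Its highest value was in Early ACT 1, as for KDM6B, while Late CTL 3 was the highest of the late libraries and below all Early ACT libraries.

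The stimulation itself was read from a list of LPS-induced genes, 7 of 12 found by name and tested. All 7 were higher in Early ACT than in Early CTL, where 4.57% of all genes were higher, among them the cytokine genes IL6, with a log2 fold change of 2.72 ± 0.13 (adjusted p = 1.07e-13), and TNF, with 1.91 ± 0.13 (adjusted p = 7.9e-11). Between Late ACT and Late CTL none of the 7 was called with all libraries. Without both libraries that stand apart 3 were called, all higher, where 71 of 12692 genes were called. Between Late CTL and Early CTL 6 of the 7 were higher, where 20.9% of all genes were higher. Of 8 tested hypoxia-inducible genes, the class KDM3A is known to belong to, 4 were higher and none lower on early stimulation, against the same 4.57%, while KDM3A was lower. The glucose transporter gene SLC2A1 changed with a log2 fold change of 1.03 ± 0.11 (adjusted p = 1.74e-07) there.

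The other lysine demethylases gave few calls with time, and several of these calls were unstable. Of 9 tested, 4 were lower and 1 higher in Late ACT than in Early ACT, with a median log2 fold change of -0.37, and 3 were lower and none higher in Late CTL than in Early CTL, with a median of -0.28. Their background is that of the members, 38.8% and 40.7% of all genes called in either direction, 19.7% and 19.8% lower. The number called in unstimulated cells is below the share called in either direction, and nothing is read from it. KDM7A, which acts on H3K9 and H3K27, changed with a log2 fold change of -0.89 ± 0.14 (adjusted p = 1.64e-05) in stimulated and -0.88 ± 0.14 (adjusted p = 1.86e-05) in unstimulated cells. Both KDM7A calls held under all 21 alternatives. The unstimulated KDM1B call was lost in 5 of them and that of KDM3B in 2. The stimulated KDM4C and KDM5C calls were lost in 5 each. None of the 9 was called for stimulation at either time with all libraries. Without both libraries that stand apart 2, both higher, were called for early stimulation, where 2157 of 12692 genes were called. Nothing is read from that count.

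The PRC2 complex writes the H3K27 mark that KDM6A and KDM6B remove. Of its 10 tested genes 3 were higher and none lower in Late ACT than in Early ACT, with a median of 0.29, where 19.1% of all genes were higher. In Late CTL against Early CTL 3 were again higher and none lower, with a median of 0.25, where 20.9% of all genes were higher. In either direction 38.8% and 40.7% of all genes were called in these comparisons. The PRC2 counts lie below those shares, and nothing is read from them. SUZ12, a core subunit, changed with a log2 fold change of 0.98 ± 0.26 (adjusted p = 0.00498) in stimulated and 0.79 ± 0.26 (adjusted p = 0.018) in unstimulated cells. The unstimulated SUZ12 call was lost without Early CTL 1, Early CTL 3 or Late CTL 2, with adjusted p up to 0.12. The unstimulated EZH2 and RBBP7 calls, both higher, were lost in 7 and 6 of 21 alternatives. The histone binding subunit RBBP4 changed with a log2 fold change of 0.45 ± 0.13 (adjusted p = 0.0067) in stimulated cells. On early stimulation 1 of the 10, RBBP4, was lower, with -0.42 ± 0.13 (adjusted p = 0.0386), a call lost in 10 of 21 alternatives.

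Of 10 tested H3K4 methyltransferases and core subunits, 1 was higher and 1 lower in Late ACT than in Early ACT, where 38.8% of all genes were called. In Late CTL against Early CTL 2 were lower and none higher, where 40.7% of all genes were called and 19.8% lower. Without both libraries that stand apart 4 were lower and none higher, where 6008 of 12692 genes were called in either direction. KMT2D, a large H3K4 methyltransferase of enhancers, was lower in both, with log2 fold changes of -0.64 ± 0.13 (adjusted p = 0.000352) in stimulated and -0.80 ± 0.13 (adjusted p = 2.59e-05) in unstimulated cells. KMT2A was the one that was higher, with a log2 fold change of 0.56 ± 0.16 (adjusted p = 0.00673). Of 11 H3K9 and H3K36 methyltransferases 1 was higher and none lower in Late ACT than in Early ACT, a smaller share than the 38.8% of all genes called. Between Late CTL and Early CTL 1 was higher and 1 lower, and without both libraries that stand apart 2 were higher and 2 lower, where 40.7% of all genes were called with all libraries.

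**Figure D4:**
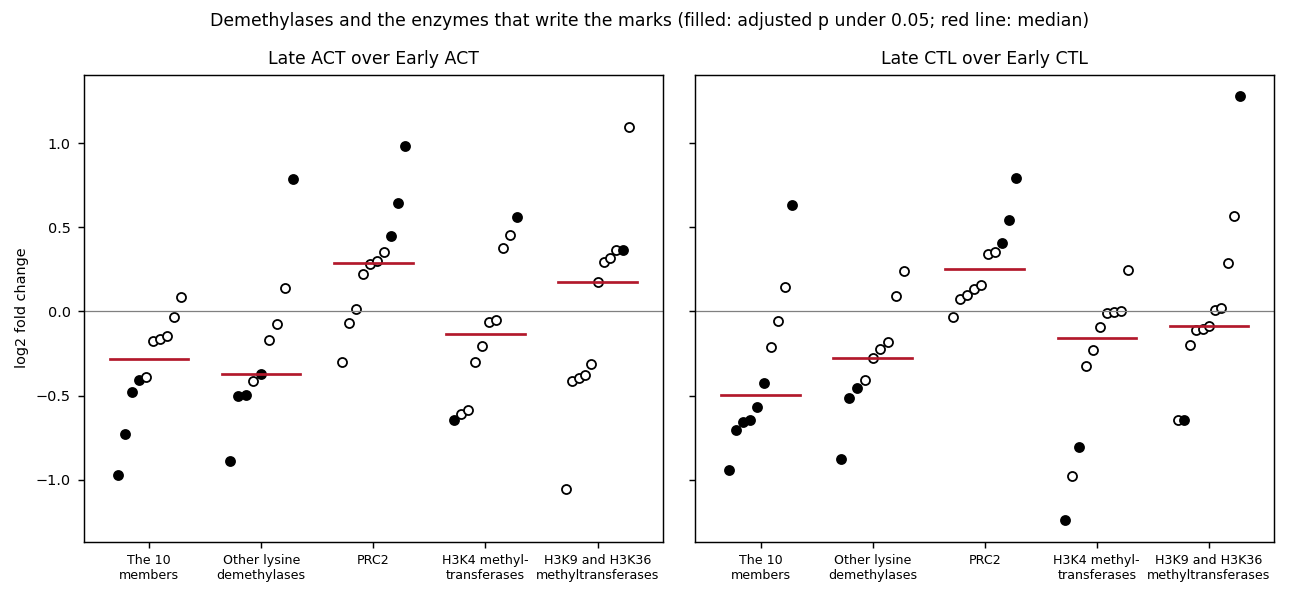
Log2 fold change of each tested gene (vertical axis) in the 10 demethylase members, 9 other lysine demethylases, 10 PRC2 genes, 10 H3K4 and 11 H3K9 and H3K36 methyltransferase genes, for Late ACT over Early ACT and Late CTL over Early CTL; filled points have an adjusted p under 0.05 and red lines are medians. In both panels the medians of the members, the other demethylases and the H3K4 methyltransferases (-0.13 and -0.16) lie below 0, and those of PRC2 above 0. The H3K9 and H3K36 median is 0.17 for Late ACT over Early ACT and -0.09 for Late CTL over Early CTL.

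Among the partners of single members, BCOR, a core subunit of the PRC1.1 complex that KDM2B belongs to, was lower in Late CTL than in Early CTL, with a log2 fold change of -1.40 ± 0.20 (adjusted p = 3.98e-06). It was also lower in Early ACT than in Early CTL, with a log2 fold change of -0.81 ± 0.19 (adjusted p = 0.0065). This stimulation call was lost in 1 of 21 alternatives, without Early ACT 3 (adjusted p = 0.052). The BCOR level was 16.5 ± 1.94 scaled CPM in Late CTL and 25.4 ± 7.00 in Early ACT, against 43.1 ± 2.12 in Early CTL (SD, n = 3 each). BCOR was lower in Late ACT than in Early ACT too, with a log2 fold change of -0.59 (adjusted p = 0.0187). That call was lost in 5 of 21 alternatives. KDM2A, KDM3A and KDM5B, also highest in Early CTL, were not called between Late ACT and Early ACT. Of the 7 tested PRC1.1 genes 2 were lower with time in unstimulated and 1 in stimulated cells, none higher, near the 19.8% and 19.7% of all genes lower, and nothing is read from these counts. Of 6 tested CoREST partners of KDM1A, 2 were called with time in stimulated and 1 in unstimulated cells, near or below the 38.8% and 40.7% of all genes. HDAC2, a histone deacetylase, was higher with time in both, with a log2 fold change of 0.55 ± 0.15 (adjusted p = 0.00566) in stimulated and 0.63 ± 0.15 (adjusted p = 0.00186) in unstimulated cells. HDAC1 was lower in stimulated cells, with a log2 fold change of -0.47 ± 0.17 (adjusted p = 0.0273), a call lost in 7 of 21 alternatives. The 4 tested partners of KDM6A are too few to set against those shares. Among them KMT2D and NCOA6 were lower with time in both. NCOA6 changed by -0.41 ± 0.12 (adjusted p = 0.00962) in stimulated and -0.38 ± 0.12 (adjusted p = 0.0149) in unstimulated cells. Each NCOA6 call was lost in 1 of 21 alternatives. In stimulated cells this was with totals alone (adjusted p = 0.0941), in unstimulated cells with upper-quartile factors (adjusted p = 0.102). PAXIP1 was higher in unstimulated cells, with a log2 fold change of 1.21 ± 0.30 (adjusted p = 0.00243).

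The authors' deposited tables of late over early cells list some of the members, with values close to those above. There KDM1A and KDM6B were found by Ensembl identifier alone, with names from the macaque name table. For stimulated cells the authors' deposited table lists KDM1A at a log2 fold change of -0.41 ± 0.13 (adjusted p = 0.0148), KDM4A at -0.73 ± 0.23 (adjusted p = 0.0122) and KDM4B at -0.98 ± 0.25 (adjusted p = 0.000858), where KDM2B, called above, is not listed. For unstimulated cells the authors' deposited table lists KDM2A at -0.63 ± 0.14 (adjusted p = 8.76e-05), KDM3A at -0.56 ± 0.12 (adjusted p = 2.49e-05) and KDM5B at -0.64 ± 0.20 (adjusted p = 0.00592). The same authors' deposited table gives KDM4A at -0.69 ± 0.23 (adjusted p = 0.0135), KDM4B at -0.93 ± 0.24 (adjusted p = 0.000655) and KDM6B, as the one that was higher, at 0.64 ± 0.23 (adjusted p = 0.0199). KDM2B is again not listed. In build Mmul_8.0.1 the authors' deposited tables place KDM1A (ENSMMUG00000009773) on chromosome 1 from 21782072 to 21848068, KDM4A (ENSMMUG00000012479) on chromosome 1 from 43145416 to 43198653 and KDM5B (ENSMMUG00000015233) on chromosome 1 from 163897137 to 163983068. By the authors' deposited tables KDM2A (ENSMMUG00000008771) lies on chromosome 14 from 7131139 to 7289153, KDM3A (ENSMMUG00000013124) on chromosome 13 from 88194516 to 88247370, KDM4B (ENSMMUG00000012677) on chromosome 19 from 5126828 to 5309815 and KDM6B (ENSMMUG00000008173) on chromosome 16 from 7853651 to 7859195.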

How the data were processed

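RNA of 12 macrophage cultures was made into SMART-Seq v4 libraries, per the labels, with a kit that does not mark the strand. The authors deposited raw counts per gene, and those counts are the basis of every test here. The authors' deposited tables of late over early cells also give log2 fold changes, p-values and a test score per gene, and hold only genes under an adjusted p-value of 0.05, so a gene they leave out has no value there. Aligner and counter settings are given only as far as the submitters' processing notes name them, with build Mmul_8.0.1.

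Counts were fitted for all 4 groups of 3 libraries together with edgeR 4.0.16 (R 4.3.3, limma 3.58.1): filterByExpr left 11826 genes, libraries were scaled by trimmed mean of M-values factors of 0.879 to 1.10, and 4 comparisons and the difference of the responses were tested by the quasi-likelihood test with Benjamini-Hochberg adjustment over all genes. The fit was also run on simulated counts in which no library stood apart, so that run does not cover this feature of the data. DESeq2 1.42.0 and limma-voom were alternatives, and figures used Python 3.11.15, pandas 2.3.3 and matplotlib 3.10.9. Leaving out Early ACT 1 and Late CTL 3 together was an alternative added after the data were seen. In related lists up to 3 tested genes with the smallest p per comparison are named, and for KDM6B the 5 most correlated genes with a name. The members and lists were chosen with earlier results of these data known. The main fit did not pair libraries by replicate number. Transcript lengths and sequences were not used here.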

Additional observations from a re-analysis of the deposited data

Results flagged for a closer look

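For 5 of the named genes outside the family, the response to stimulation differed between the times by a test of the difference itself (late minus early log2 fold change, edgeR quasi-likelihood test). IL6 differed by -2.14 (adjusted p = 9.17e-09), TNF by -1.67 (adjusted p = 1.13e-06) and CCL20, a chemokine gene, by -1.61 (adjusted p = 1.34e-07). The glucose transporter gene SLC2A1 differed by -1.03 (adjusted p = 0.000132). VEGFA, a growth factor gene of the hypoxia list, differed by -0.55 (adjusted p = 0.0467), a call lost in 13 alternatives with adjusted p up to 0.259, while the other 4 kept theirs in each alternative. In all 5 the late response was the smaller. All 7 tested genes of the LPS-induced list were called by this test, each with the smaller late response. Their median log2 fold change was 1.59 between Late CTL and Early CTL, with 6 higher, where 20.9% of all genes were higher. It was -0.08 between Late ACT and Early ACT, with 1 higher and 3 lower, where 38.8% of all genes were called. IL6 was lower in Late ACT than in Early ACT, at -0.77. SLC2A1 and VEGFA were higher in Late CTL than in Early CTL, at 0.59 and 0.77. None of the 10 demethylases was called by the test of the difference, where 1.41% of all genes were called, and nothing is read from that count. Among the 10, KDM6B came nearest, at -1.02 (adjusted p = 0.129).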

How the results depend on the processing

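Of the 16 member values called, 9 kept their call under every alternative tried, 7 lost it under at least 1, and 0 changed direction, over 20 or 21 alternatives per value. Of the 34 values not called, 8 passed the threshold under at least 1 alternative and 13 changed sign; in each case the cause was not tested unless fewer libraries or another scaling is named here. Members called for early stimulation numbered 5, and 3 to 5 with 1 library left out, 3 without Early CTL 2. Members called between Late ACT and Early ACT numbered 4, and 2 with libraries scaled by totals alone. For the difference of the responses 0 members were called, against 1 without both libraries that stand apart, 1 with no filter on low counts and 0 to 1 with 1 library left out, the 1 being without Early ACT 1.

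Over all genes 167 were called for the difference of the responses, against 852 without both libraries that stand apart, 313 by DESeq2 and 95 to 546 with 1 library left out. Early stimulation called 855 genes, against 2157 without both libraries, 2413 with totals alone, 503 with only the compared groups and 464 to 1554 with 1 library left out. Late stimulation called 0, against 71 without both libraries, 15 by DESeq2, 5 with no filter, 10 with only the compared groups, 2 with upper-quartile factors and 0 to 29 with 1 library left out. The highest of each range was without Early ACT 1.

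Scaling moved directions. Of the genes called, 49.3% were higher between Late ACT and Early ACT with the main factors, 61.0% with upper-quartile factors and 65.2% with totals alone, which put the median of all genes at 0.15 and 0.20. Between Late CTL and Early CTL it was 51.3%, against 63.3% with upper-quartile factors and 43.1% with totals alone, at medians of 0.15 and -0.067. For early stimulation it was 63.3%, against 11.6% with totals alone, at a median of -0.28, and for the difference of the responses 13.2%, against 61.4%, at a median of 0.23.

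With a replicate block 6 of the members were called between Late CTL and Early CTL instead of 7, KDM2B being the one lost, and no other member call changed. The block called 114 genes for the difference of the responses, 4354 for Late ACT over Early ACT, 4596 for Late CTL over Early CTL, 727 for early and 0 for late stimulation. Same-numbered libraries had correlations from -0.0855 to 0.0968, so no pairing by number was seen. With 3 libraries per group these values cannot exclude one, and here the numbers only name libraries.

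Signs turned only for values that were not called. KDM1A between Late CTL and Early CTL turned to 0.069 with upper-quartile factors, KDM3A between Late ACT and Early ACT to 0.0073 with totals alone, and KDM5A there to 0.12 with totals alone and 0.068 with upper-quartile factors. With totals alone KDM6A early stimulation was -0.044, and its difference of the responses 0.19. KDM6B late stimulation was 0.31 without both libraries and -0.32 to 0.30 with 1 left out. The KDM2B difference of the responses was 0.19 with totals alone and -0.20 to 0.082 with 1 left out.

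The KDM4A difference of the responses was 0.028 by limma-voom, 0.22 with totals alone and -0.13 to 0.11 with 1 library left out. KDM4A early stimulation was -0.039 without both libraries, -0.24 with totals alone and -0.039 to 0.083 with 1 left out, and late stimulation -0.088, -0.025 and -0.096 to 0.15 in the same order. The KDM4B difference of the responses was 0.084 by limma-voom, 0.21 with totals alone and -0.24 to 0.19 with 1 left out. KDM4B early stimulation was -0.19 without both libraries, -0.042 by limma-voom, -0.25 with totals alone and -0.19 to 0.19 with 1 left out. KDM4B late stimulation was -0.22 without both libraries, -0.0054 by DESeq2, -0.032 with totals alone, -0.0026 with relative log expression (RLE) factors, -0.0023 with upper-quartile factors and -0.21 to 0.22 with 1 left out.

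Of 55 called values of related genes, 31 kept the call under every alternative, 24 lost it under at least 1 and 0 changed direction. Depth limits KDM4A, KDM4B and KDM5B most, which rest on as few as 60, 58 and 61 counts in a library.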
